A study of Homo sapiens with 6 samples.

Results

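Unfolded protein and ATF4 stress genes are the 34 genes described here. They were chosen by name, as chaperones, sensors, transcription factors and target genes of these responses, and where a gene had several probe sets the one of greatest average log2(signal + 32) stood for it. All 34 were measured, of 11963 genes in all, and 52 probe sets of the table carried the symbol of exactly 1 of them. The samples were 3 arrays of E1, a colon cancer line that the labels call metastatic and derived in vivo, and 3 arrays of HCT116, an established colon cancer line that they call poorly metastatic. The cell line label of the E1 samples also reads HCT116. The labels name no treatment, host or culture condition. Triplicates is their word for the arrays of one line, with nothing on whether separate cultures were used, so the p-values rest on a spread between arrays that may be only technical.

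The unfolded protein response adjusts the folding capacity of the endoplasmic reticulum (ER) to the load of secretory proteins. Its sensors are IRE1 (ERN1), which splices XBP1 mRNA, PERK (EIF2AK3), which phosphorylates the translation factor eIF2-alpha, and ATF6, and their outputs are chaperones, disulfide isomerases and components of ER-associated degradation (ERAD). Phosphorylated eIF2-alpha lowers general translation and raises translation of ATF4, a factor that drives genes of amino acid synthesis and transport and of stress feedback. Kinases that sense amino acid shortage, haem shortage or double-stranded RNA feed the same ATF4 branch without the ER, which is known as the integrated stress response.

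Promoter stretches are shown because they carry the response elements through which these branches are known to act. Promoter sequences from RefSeq (GRCh38.p14) matched 30 of the 34 genes. The 250 bases before each annotated start were searched on both strands for the ER stress element ERSE (CCAAT, then any 9 bases, then CCACG), for ERSE-II (ATTGG, then any 1 base, then CCACG) and for TGATGNAA, the core of the C/EBP-ATF element (CARE) that ATF4 binds with C/EBP partners. The ERSE letters stood before 6 of the 30 genes, HSPA5, HSP90B1, CALR, CANX, PDIA6 and XBP1, and before 0.0916% of 27305 annotated genes. ERSE-II stood before HYOU1, SDF2L1 and HERPUD1, against 0.0659% of genes, and the CARE core before HERPUD1, ATF3, CEBPG and ASNS, against 3.89%. TGACGTG, the core of the unfolded protein response element (UPRE), was also searched. Of the 30 genes it stood before HYOU1 alone, against 2.05% of genes. A match is a description of letters and not a site, and the genes were chosen as known targets, so these shares are no finding. Capitals mark the matched letters of ERSE, ERSE-II and the CARE core in the stretches here, and the UPRE core of HYOU1 is not marked.
HSPA5, chr9:125241376-125241424, minus strand: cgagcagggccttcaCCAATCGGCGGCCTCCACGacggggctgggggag
CALR, chr19:12938369-12938417, plus strand: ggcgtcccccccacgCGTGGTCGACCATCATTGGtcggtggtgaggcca
XBP1, chr22:28800588-28800636, minus strand: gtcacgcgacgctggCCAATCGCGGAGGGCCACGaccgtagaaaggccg
HYOU1, chr11:119057259-119057405, minus strand: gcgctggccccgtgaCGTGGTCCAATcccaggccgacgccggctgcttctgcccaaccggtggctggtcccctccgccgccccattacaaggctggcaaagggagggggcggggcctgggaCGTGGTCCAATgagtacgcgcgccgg
SDF2L1, chr22:21642099-21642139, plus strand: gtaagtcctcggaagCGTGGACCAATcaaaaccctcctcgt
HERPUD1, chr16:56931951-56932050, plus strand: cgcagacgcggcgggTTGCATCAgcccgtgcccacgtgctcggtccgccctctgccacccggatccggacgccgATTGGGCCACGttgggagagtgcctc
ASNS, chr7:97872454-97872491, minus strand: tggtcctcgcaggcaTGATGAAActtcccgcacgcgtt
CEBPG, chr19:33374056-33374093, plus strand: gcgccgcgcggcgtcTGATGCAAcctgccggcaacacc

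Arrays of both lines stood apart. On E1 arrays 2 and 3 the ratio of 3' to 5' signal of the GAPDH control probe sets was 34.1 and 71.9, against 0.803 on E1 array 1 and 0.774 to 0.811 on the HCT116 arrays. HCT116 array 2 had an ordinary GAPDH ratio of 0.793 but stood apart in the genes described here, so for the 34 genes the log2 fold change without it, or from E1 array 1 alone, stands beside a value that it turns or moves by over 1.5 times. Epithelial markers summed to 11670 to 14680 over 10 genes in E1 and to 16870 to 19480 in HCT116. The sums were carried by EPCAM, CDH1 and the keratins KRT18 and KRT19, and by KRT8 on E1 array 1 and the HCT116 arrays. KRT8 read 2862, 372 and 103 on E1 arrays 1, 2 and 3, against 4693, 3169 and 4352 in HCT116. The intestinal markers VIL1, CDX1 and CDX2 read at most 18.7, 12.7 and 8.20 on any E1 array and at most 16.4, 17.2 and 22.4 on any HCT116 array. Higher readings came from KRT20, at 30.4 to 116 in E1 and 22.1 to 54.4 in HCT116. LGALS4 read 13.9 to 79.75 in E1 and 55.6 to 63.2 in HCT116. The 6 fibroblast markers summed to 227 to 336 in E1 and 301 to 350 in HCT116, the 7 leukocyte markers to 176 to 237 in E1 and 162 to 252 in HCT116, and the 5 endothelial markers to 97.2 to 134 in E1 and 92.0 to 112 in HCT116. Among these, PTPRC of leukocytes and CDH5 of endothelium read at most 7.60 and 2.71 on any E1 array and at most 15.7 and 3.25 on any HCT116 array, while CD3E read 60.2 to 83.3 in E1 and 79.9 to 132 in HCT116, and PECAM1 39.7 to 61.6 in E1 and 51.5 to 63.2 in HCT116. The part of other cells in the results was not tested.

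Between the lines, none of the 34 genes passed. Over all genes 0.418% were called at an adjusted p under 0.05 in limma, and 0 of the 34 were, the lowest adjusted p among them being 0.259. An unadjusted p under 0.05 was found for 3 of the 34 (15.0% of all genes), 1 of them higher in E1 (5.29% of all genes) and 2 lower (9.70%). A fold of at least 2 on the offset scale was seen for 4 of the 34 in the lower direction, ATF3, PPP1R15A, DDIT4 and PSAT1 (4.55% of all genes), and for 0 in the higher direction (0.920%). The counts depended on the arrays used: they were, without HCT116 array 2, 0 lower and 1 higher, CEBPB (5.14% and 1.3% of all genes), and with E1 array 1 alone 0 either way (1.71% and 1.13%). E1 array 1 taken alone lay below all 3 HCT116 arrays for 7 of the 34 genes (33.0% of all genes) and above all 3 for 3 (24.7%). The median log2 fold change, E1 minus HCT116 on the scale of log2(intensity + 32), was -0.14 over the 34 genes and -0.01 over all genes, with 16 of the 34 positive and 18 negative. Without HCT116 array 2 the median of the 34 was 0.17, and of all genes -0.02. Values measure RNA of a whole culture, in which fewer cells making a transcript and less of it per cell cannot be told apart.

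Within HCT116, array 2 stood apart from the other arrays in these genes. It was the highest of the 6 arrays for 20 of the 34 genes and for 12.4% of all genes, and it lay above both other HCT116 arrays for 25 of the 34 and for 29.7% of all genes. E1 arrays 1, 2 and 3 were the highest for 2, 1 and 5 of the 34 (13.1%, 12.0% and 30.0% of all genes), and HCT116 arrays 1 and 3 for 3 each (22.0% and 10.6%). Array 2 of HCT116 lay at least 1 log2 unit above both other HCT116 arrays for 12 of the 34 genes and for 0.894% of all genes. The 12 were ATF4, ATF3, CEBPB, CEBPG, TRIB3, PPP1R15A, DDIT4, ASNS, PHGDH, PSAT1, STC2 and HERPUD1, which are ATF4, its partner or related factors, and genes known as ATF4 targets. The other factors, feedback, amino acid synthesis and surface genes of the 34 fell short of it. Their margins were 0.75 for DDIT3, 0.71 for XBP1, 0.65 for MTHFD2, 0.57 for PSPH, 0.25 for SHMT2, 0.08 for NUPR1 and -0.32 for VLDLR. On E1 arrays 1, 2 and 3 a margin of at least 1 log2 unit over both other arrays of the line was met by 4, 0 and 1 of the 34 (array 1, 4.51% of all genes; array 3, 0.493%), and on HCT116 arrays 1 and 3 by 0 and 0. For E1 array 1 the genes were PHGDH at 1.65, PSAT1 at 1.15, HYOU1 at 1.14 and PPP1R15A at 1.09. All but HYOU1 are also among the 12, and TRIB3 at 0.97 and DDIT4 at 0.91 fell short. These patterns were found by looking at these same values, so they are given as a description with no test. What set HCT116 array 2 or E1 array 1 apart in these genes was not tested.

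**Figure D1:**
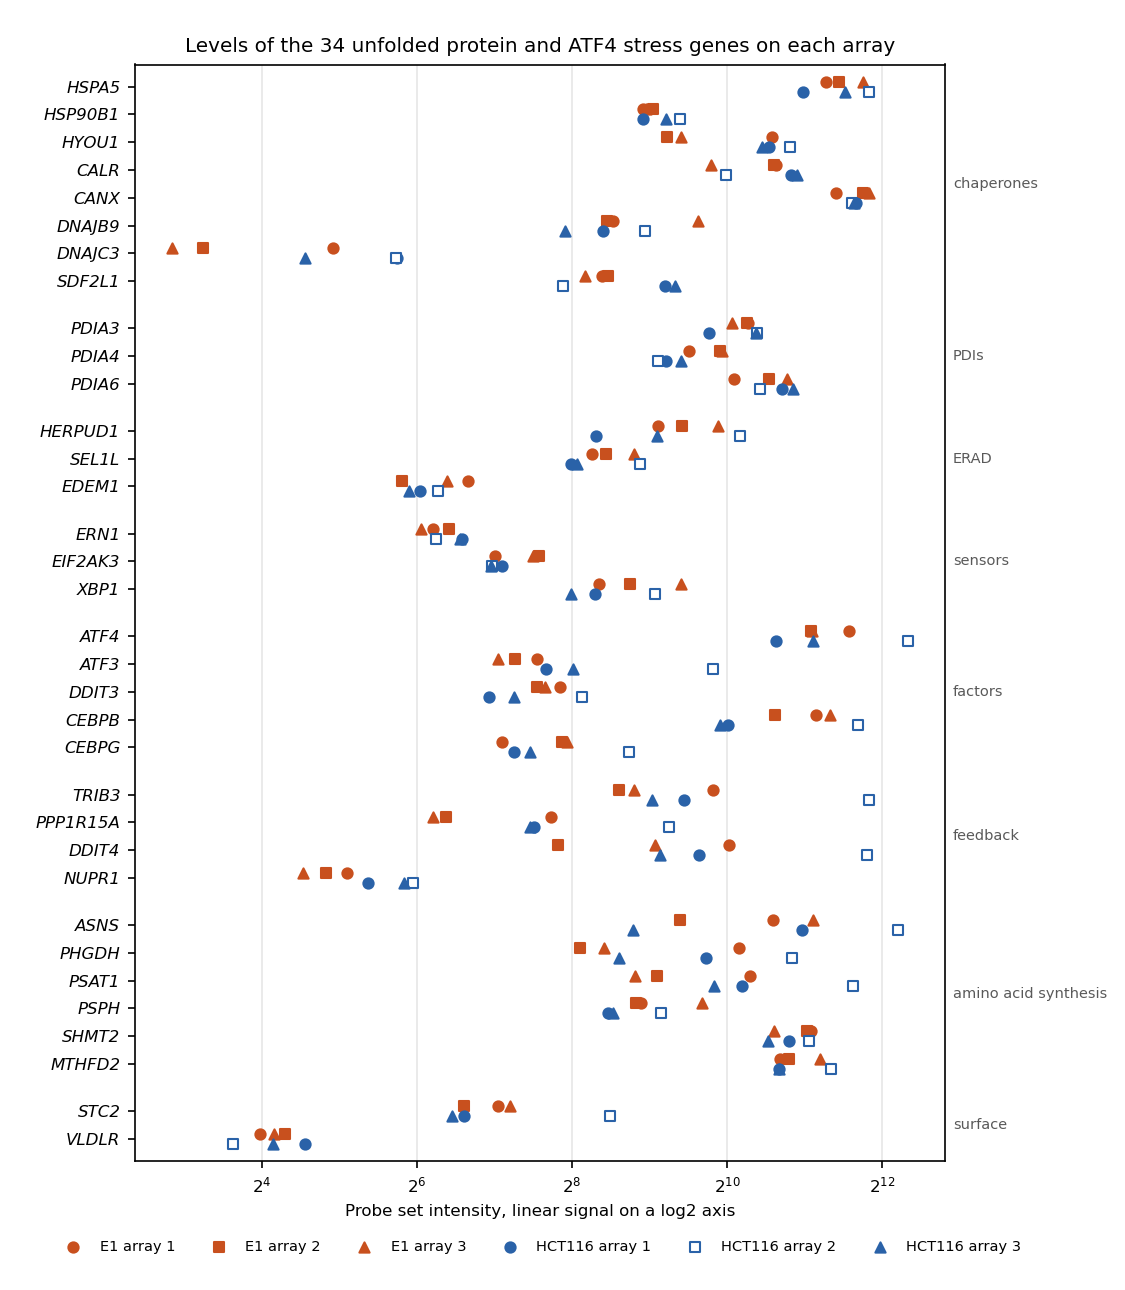
Probe set intensity (linear signal on a log2 axis) of the 34 genes on each of the 6 arrays, ordered by role, with E1 in orange above HCT116 in blue and the array number as the symbol. HCT116 array 2, the open square, is the highest of the 6 points for 20 of the 34 genes and for all 5 genes of the transcription factor role. XBP1, a factor placed with the sensors, is highest on E1 array 3.

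Among the transcription factors, ATF4 itself read 3043, 2172 and 2189 on E1 arrays 1, 2 and 3, against 1582, 5168 and 2211 on the HCT116 arrays. The E1 values lay inside the HCT116 range, and the log2 fold change was -0.11 (SE 0.43, adjusted p = 0.954 in limma), turning to 0.38 without HCT116 array 2 and to 0.21 with E1 array 1 alone. ATF4 is controlled largely through translation, which an array does not measure. DDIT3, the factor CHOP of prolonged ER stress, read 229, 186 and 200.3 in E1 and 121, 279 and 153 in HCT116, with all E1 arrays between HCT116 arrays 3 and 2. Its log2 fold change was 0.20 (SE 0.27, adjusted p = 0.812), or 0.49 without HCT116 array 2 and 0.34 with E1 array 1 alone.

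ATF3, a stress-induced factor of the same family, was the 1 transcription factor whose arrays did not overlap between the lines. It read 187, 153.5 and 132 in E1, against 202, 903 and 257 in HCT116, so that every E1 array lay below every HCT116 array. Arrays failed to overlap in this direction for 2 of the 34 genes and for 10.7% of all genes. The log2 fold change was -1.08 (SE 0.51, adjusted p = 0.380) with all arrays, -0.47 (adjusted p = 0.428) without HCT116 array 2, and -0.86 with E1 array 1 alone. CEBPB, a partner of ATF4 and CHOP, read 2261, 1576 and 2564 in E1 and 1030, 3290 and 959 in HCT116. Without HCT116 array 2 its log2 fold change was 1.05 (adjusted p = 0.266), against 0.48 (SE 0.48, adjusted p = 0.712) with all arrays, so leaving out 1 array moves the value by more than 1.5 times. CEBPG, the dimer partner that acts with ATF4, stood at -0.17 (SE 0.39) with all arrays, at 0.24 without HCT116 array 2 and at -0.62 with E1 array 1 alone.

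HCT116 array 2 lay at least 1 log2 unit above both other HCT116 arrays for 3 of the 4 feedback genes (0.894% of all genes), with a margin of 0.08 for NUPR1. In E1, array 1 lay above both other arrays for all 4 (3989 of 11963 genes overall), and by at least 1 log2 unit for PPP1R15A. TRIB3, a pseudokinase that restrains ATF4 and CHOP, read 899, 391 and 444 in E1 and 693, 3638 and 525 in HCT116. Only HCT116 array 2 lay outside the range of E1, and it was 5.98 times the mean of the other HCT116 arrays. The log2 fold change of TRIB3 was -0.99 (SE 0.73, adjusted p = 0.581) with all arrays, -0.15 (adjusted p = 0.918) without HCT116 array 2 and -0.29 with E1 array 1 alone. DDIT4, the mTORC1 inhibitor REDD1, read 1037, 226 and 536 in E1 and 796, 3577 and 560 in HCT116, and stood at -1.17 (SE 0.79, adjusted p = 0.540), or at -0.38 without HCT116 array 2 and -0.18 with E1 array 1 alone. PPP1R15A, the stress-induced subunit of the eIF2-alpha phosphatase known as GADD34, read 212, 82.8 and 73.4 in E1 and 182, 607 and 176 in HCT116. In E1 its level on array 1 lay among the HCT116 values, and its levels on the arrays with a high GAPDH ratio lay below all of them. PPP1R15A stood at -1.09 (SE 0.53, adjusted p = 0.394), at -0.56 without HCT116 array 2 and at -0.32 with E1 array 1 alone. Its other probe set read 165, 11.0 and 33.4 in E1 and 73.7, 433 and 105 in HCT116. That set stood at -1.20 (SE 0.75), turning to 0.06 with E1 array 1 alone.

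NUPR1, a small chromatin-associated stress protein, had the smallest p of the 34. It read 34.01, 28.2 and 23.0 in E1, against 41.2, 61.8 and 56.9 in HCT116, with no overlap, and stood at -0.49 (SE 0.16, adjusted p = 0.259 in limma). With E1 array 1 alone the value was -0.36. These are dim signals near the offset of 32, which compresses the difference. With an offset of 1 it was -0.88, and it was not called there either.

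Of the amino acid synthesis genes, ASNS, which makes asparagine and is a standard readout of ATF4, read 1540, 669.5 and 2214 in E1 and 1993, 4717 and 441 in HCT116. Both the highest and the lowest of the 6 values were HCT116 arrays, and the log2 fold change was -0.29 (SE 0.86, adjusted p = 0.928), the widest standard error of the 34. It turned to 0.47 without HCT116 array 2 and was -0.08 with E1 array 1 alone. PSAT1, the aminotransferase of serine synthesis, read 1251, 546 and 451 in E1 and 1173, 3169 and 909 in HCT116, and PHGDH, which starts that pathway, 1136, 274 and 341 in E1 and 845, 1826 and 388 in HCT116. For both, E1 array 1 lay between HCT116 arrays 1 and 2 while E1 arrays 2 and 3 lay below all HCT116 arrays. PSAT1 stood at -1.11 (SE 0.55, adjusted p = 0.407) and PHGDH at -0.79 (SE 0.68, adjusted p = 0.657) with all arrays. Without HCT116 array 2 they stood at -0.58 and -0.25, and with E1 array 1 alone at -0.26 and 0.41. PSPH, the phosphatase that ends serine synthesis, stood at 0.39 (SE 0.28), or at 0.60 without HCT116 array 2 and 0.17 with E1 array 1 alone. SHMT2 and MTHFD2, which pass the serine carbon into mitochondrial folate, stood at 0.10 (SE 0.20) and 0.00 (SE 0.24), at 0.23 and 0.22 without HCT116 array 2, and at 0.28 and -0.20 with E1 array 1 alone.

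Of the secreted and surface targets, the glycoprotein STC2 read 132, 97.3 and 147 in E1 and 97.1, 359 and 87.1 in HCT116, with HCT116 array 2 again the highest. For this probe set the log2 fold change was -0.22 (SE 0.46, adjusted p = 0.888), turning to 0.33 without HCT116 array 2. The other STC2 probe set, of similar mean signal, read 106, 73.6 and 81.9 in E1 against 123, 299 and 162 in HCT116. There every E1 array lay below every HCT116 array, so the negative sign did not rest on HCT116 array 2. Its log2 fold change was -0.86 (SE 0.29, adjusted p = 0.24 in the limma fit over single probe sets). VLDLR, a lipoprotein receptor raised by ATF4 in ER stress, was dim on every array, at 15.7 to 19.5 in E1 and 12.3 to 23.5 in HCT116. Its log2 fold change was 0.00 (SE 0.14), or -0.0801 without HCT116 array 2 and -0.055 with E1 array 1 alone.

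Among the ER chaperones, HSPA5, the luminal HSP70 known as BiP and the standard marker of the unfolded protein response, read 2468, 2776 and 3436 in E1 and 2022, 3645 and 2931 in HCT116. The E1 values lay within the HCT116 range, and its log2 fold change stood at 0.04 (SE 0.25, adjusted p = 0.970 in limma), or at 0.23 without HCT116 array 2 and -0.17 with E1 array 1 alone. HCT116 array 2 was 1.47 times the mean of the other HCT116 arrays for HSPA5. The lectin chaperone CANX stood at 0.02 (SE 0.16), the ER HSP90 protein HSP90B1 at -0.19 (SE 0.16), and DNAJB9, a J-domain partner of HSPA5, at 0.42 (SE 0.37). Without HCT116 array 2 these 3 values were 0.0047, -0.09 and 0.66, and with E1 array 1 alone -0.24, -0.25 and 0.11.

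The lectin chaperone CALR and SDF2L1, which works with HSPA5 and its J-domain partners, ran the other way on HCT116 array 2. CALR read 1583, 1561 and 888 in E1 and 1809, 1009 and 1919 in HCT116. SDF2L1 read 333, 353 and 286 in E1 and 586, 235 and 643 in HCT116. HCT116 array 2 was 0.541 and 0.383 times the mean of the other HCT116 arrays. Without it SDF2L1 stood at -0.86 (adjusted p = 0.219), against -0.44 (SE 0.36, adjusted p = 0.634) with all arrays, and CALR at -0.51, against -0.22 (SE 0.33). With E1 array 1 alone CALR stood at 0.06, and at -0.76 and -0.44 by its other probe sets. The 9 genes with ERSE or ERSE-II did not share one place. Array 2 was the highest HCT116 array for 5 of them, HSPA5, HSP90B1, XBP1, HYOU1 and HERPUD1 (29.7% of all genes). It was the lowest for 4, CALR, CANX, PDIA6 and SDF2L1 (5339 of 11963 genes overall). CANX was close, at 0.974 times the mean of the other HCT116 arrays. The 4 genes with the CARE core were among the 12 that lay at least 1 log2 unit above both other HCT116 arrays on array 2, and the other 8 of these 12 had no CARE core in the bases searched.

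HYOU1, a large ER chaperone that exchanges nucleotide on HSPA5, was the chaperone furthest from 0. It read 1529, 596 and 677 in E1, against 1485, 1801 and 1401 in HCT116. E1 array 1 lay within the HCT116 range and E1 arrays 2 and 3 lay far below it. The log2 fold change was -0.84 (SE 0.35, adjusted p = 0.334) over the 6 arrays, and E1 array 1 alone gave -0.02. When E1 array 1 was left out HYOU1 was called, at -1.25 (adjusted p = 0.0115 in limma), as were 8.97% of all genes, 7.33% lower and 1.64% higher, and E1 was then represented only by the arrays with GAPDH ratios of 34.1 and 71.9. Of the 34 genes, HYOU1 alone was called under any of the settings tried, and under that 1 setting. DNAJC3, a co-chaperone that also inhibits PERK, read 30.2, 9.46 and 7.13 in E1 and 53.4, 52.7 and 23.5 in HCT116, and stood at -0.66 (SE 0.26, unadjusted p = 0.0386, adjusted p = 0.312 in limma), or at -0.25 with E1 array 1 alone. Its signals are also dim, and the value was -1.58 with an offset of 1 and -0.31 with an offset of 100, not called in either. The share of these differences that goes with the 3' to 5' ratio was not tested.

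PDIA4, a disulfide isomerase of the ER, was the 1 gene of the 34 with every E1 array above every HCT116 array, which held for 8.18% of all genes. It read 727, 956 and 980 in E1, against 592, 550 and 677 in HCT116, and its log2 fold change stood at 0.52 (SE 0.17, unadjusted p = 0.0198, adjusted p = 0.263). With E1 array 1 alone the value was 0.25. A second probe set of PDIA4 read 332, 571 and 407 in E1 and 369, 257 and 339 in HCT116, so there the arrays overlapped. It stood at 0.39 (SE 0.23), and at 0.05 with E1 array 1 alone. Of the other isomerases, PDIA3, the partner of the lectin chaperones, stood at 0.02 (SE 0.20) and PDIA6 at -0.19 (SE 0.21). Without HCT116 array 2 they were at 0.12 and -0.30, and with E1 array 1 alone at 0.0848 and -0.55.

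In ERAD, HERPUD1, a membrane scaffold of the retrotranslocation complex and a target of both branches, read 554, 683 and 946 in E1 and 318, 1148 and 548 in HCT116. All E1 values lay between the HCT116 extremes, and its log2 fold change stood at 0.26 (SE 0.45, adjusted p = 0.857), or at 0.72 (adjusted p = 0.434) without HCT116 array 2 and -0.0842 with E1 array 1 alone. SEL1L, the adaptor of the HRD1 ligase, stood at 0.17 (SE 0.26), and EDEM1, which marks misfolded glycoproteins for removal, at 0.15 (SE 0.19). SEL1L was at 0.43 without HCT116 array 2 and at -0.0495 with E1 array 1 alone, where EDEM1 was at 0.42. XBP1 read 325, 430 and 678 in E1 and 314, 535 and 254 in HCT116, which put its log2 fold change at 0.35 (SE 0.34, adjusted p = 0.699). Without HCT116 array 2 XBP1 stood at 0.64, and with E1 array 1 alone it turned to -0.10. Its probe set is not known here to tell spliced from unspliced mRNA. Of the sensors, ERN1 stood at -0.17 (SE 0.14), and EIF2AK3 at 0.29 (SE 0.17) with all arrays, 0.44 without E1 array 1 and -0.0012 with that array alone. ATF6, which is not among the 34 and was named after its values were seen, read 27.7, 185 and 97.6 in E1 and 147, 191 and 171.5 in HCT116. It stood at -0.76 (SE 0.44, adjusted p = 0.480 in limma) and at -1.75 with E1 array 1 alone, the lowest of its 6 values being E1 array 1.

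**Figure D2:**
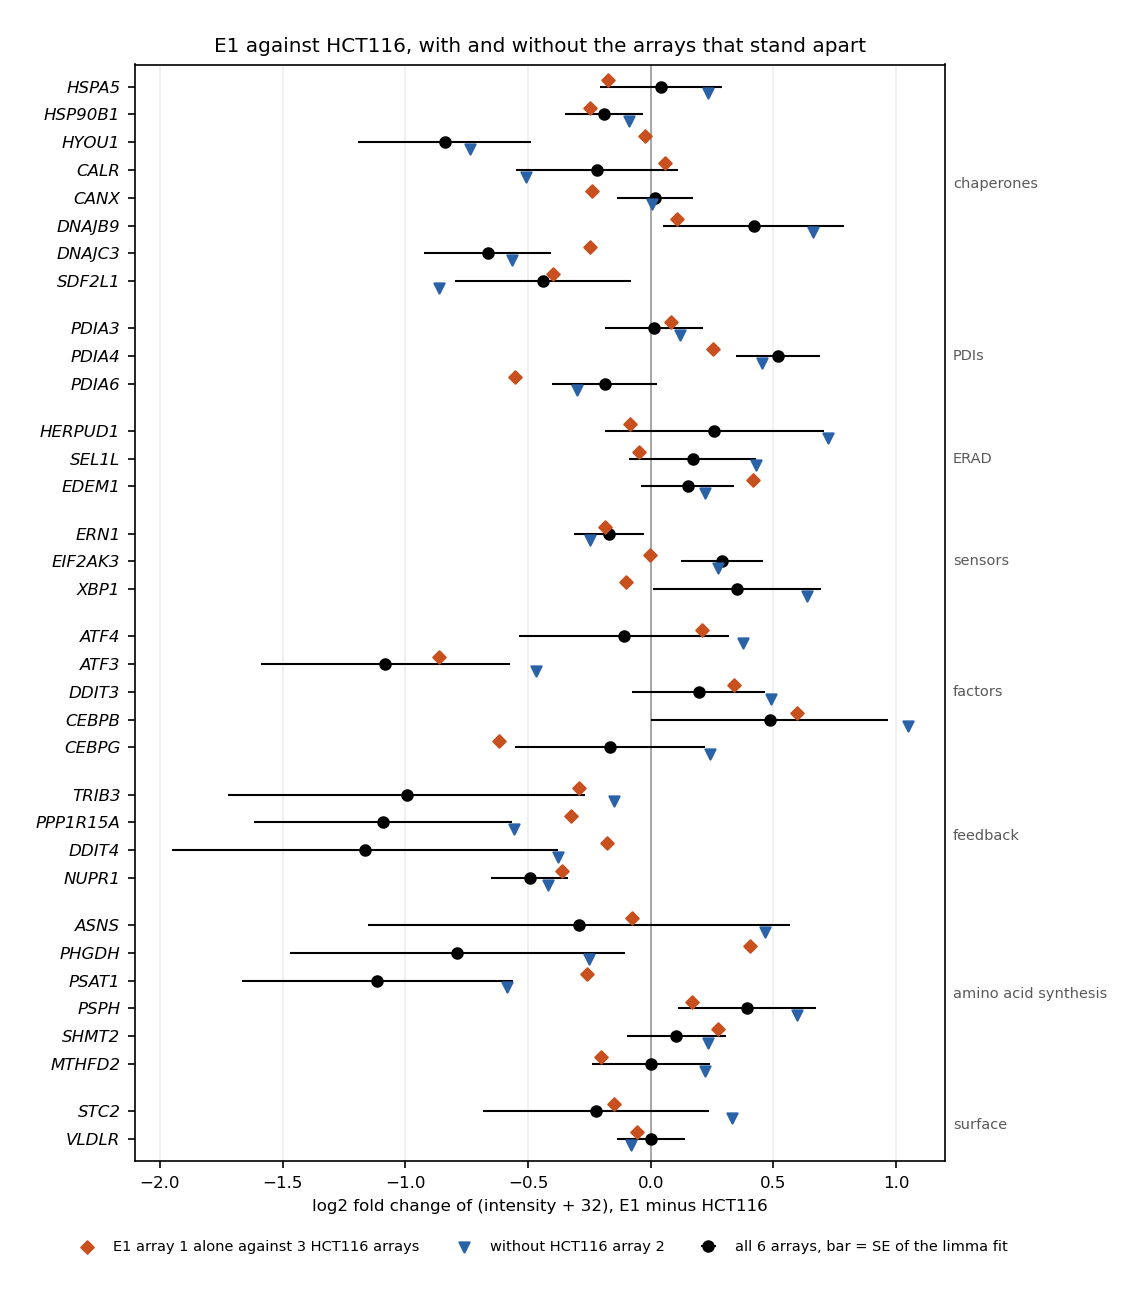
log2 fold change of the 34 genes on the scale of log2(intensity + 32), E1 minus HCT116. Black points with SE bars use all 6 arrays, orange diamonds E1 array 1 alone against the 3 HCT116 arrays, and blue triangles leave out HCT116 array 2. For TRIB3 the black point lies at -0.99, while the diamond lies at -0.29 and the triangle at -0.15.

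Other genes were taken from 7 lists of the same pathways and 1 contrast list of heat shock genes. Of their 136 measured genes 0 passed in limma, and 30 had an unadjusted p under 0.05, 7 higher and 23 lower in E1. That is 22.1% of them, 5.15% higher and 16.9% lower, where 15.0% of all genes had such a p, 5.29% higher and 9.70% lower. Of 17 further chaperones and folding enzymes 1 was higher and 1 lower by that unadjusted p, led by the glucosyltransferase UGGT1 at -0.70 (SE 0.19) and MANF at 0.51 (SE 0.21), or 0.21 with E1 array 1 alone. Of 25 genes of ERAD and ER transport 3 were higher and 5 lower, led by the retrotranslocation factor DERL1, which read 651, 651 and 510 in E1 and 1121, 950 and 988 in HCT116, so that it stood at -0.73 (SE 0.16, adjusted p = 0.144). EDEM3 followed at -0.73 (SE 0.19). Of 14 further sensors and factors 2 were higher and 3 lower, led by NFYA, a subunit of the CCAAT-binding factor that occupies ERSE, at 0.69 (SE 0.15, adjusted p = 0.144), and the ATF6 protease MBTPS2 at -0.80 (SE 0.23), or -0.50 with E1 array 1 alone. NFYA read 374, 378 and 403 in E1 against 249, 245 and 190 in HCT116, and stood at 0.65 with E1 array 1 alone.

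By the same unadjusted p, of 13 eIF2 kinase, phosphatase and eIF2B genes 0 were higher and 3 lower, led by EIF2B1 at -0.48 (SE 0.17) and EIF2S3 at -1.48 (SE 0.56). EIF2S3 stood at -0.10 with E1 array 1 alone. Among ATF4 targets outside the 34, the counts were 0 higher and 1 lower of 13 aminoacyl-tRNA synthetases, 0 and 3 of 16 genes of amino acid transport and synthesis, and 0 and 2 of 19 others. VARS1 stood at -1.58 (SE 0.61), WARS1 at -0.74 (SE 0.39), ALDH18A1 at -0.63 (SE 0.18), SLC1A5 at -1.68 (SE 0.59), ATF5 at -0.96 (SE 0.27) and BCL2L11 at -0.51 (SE 0.20). With E1 array 1 alone VARS1 stood at -0.05, SLC1A5 at -0.26, WARS1 at -1.18, ALDH18A1 at -0.32 and ATF5 at -0.45. Of 19 cytosolic and mitochondrial heat shock genes 1 was higher and 5 lower, led by the mitochondrial protease LONP1 at -1.27 (SE 0.33) and the mitochondrial HSP90 protein TRAP1 at -0.94 (SE 0.26), which with E1 array 1 alone were at -0.63 and -0.42.

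HCT116 array 2 was also set against its line in these lists, and the lists were not tested against each other. Over 13 aminoacyl-tRNA synthetases its median log2 difference from the mean of the other HCT116 arrays was 0.93, and it was the highest of the 6 arrays for 12 of them. Over 16 transport and synthesis genes the median was 0.64, with array 2 the highest for 8, and over 19 other ATF4 and CHOP targets 0.86, with array 2 the highest for 12. Over 17 further ER chaperones and folding enzymes the median was 0.00, yet array 2 was the highest for 7 of them, or 41.2%, against 12.4% of all genes. Over 25 ERAD and transport genes the median was 0.00 (highest for 3), over 14 sensors and factors 0.02 (2), over 13 eIF2 genes -0.30 (1), over 19 heat shock genes -0.64 (2) and over all genes -0.05. CHAC1, which degrades glutathione downstream of ATF4, was named after its values were seen. It read 213, 56.2 and 120 in E1 and 60.5, 1439 and 94.3 in HCT116, and ranked 2 of 11963 genes by the margin of HCT116 array 2 over the other HCT116 arrays.

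**Figure D3:**
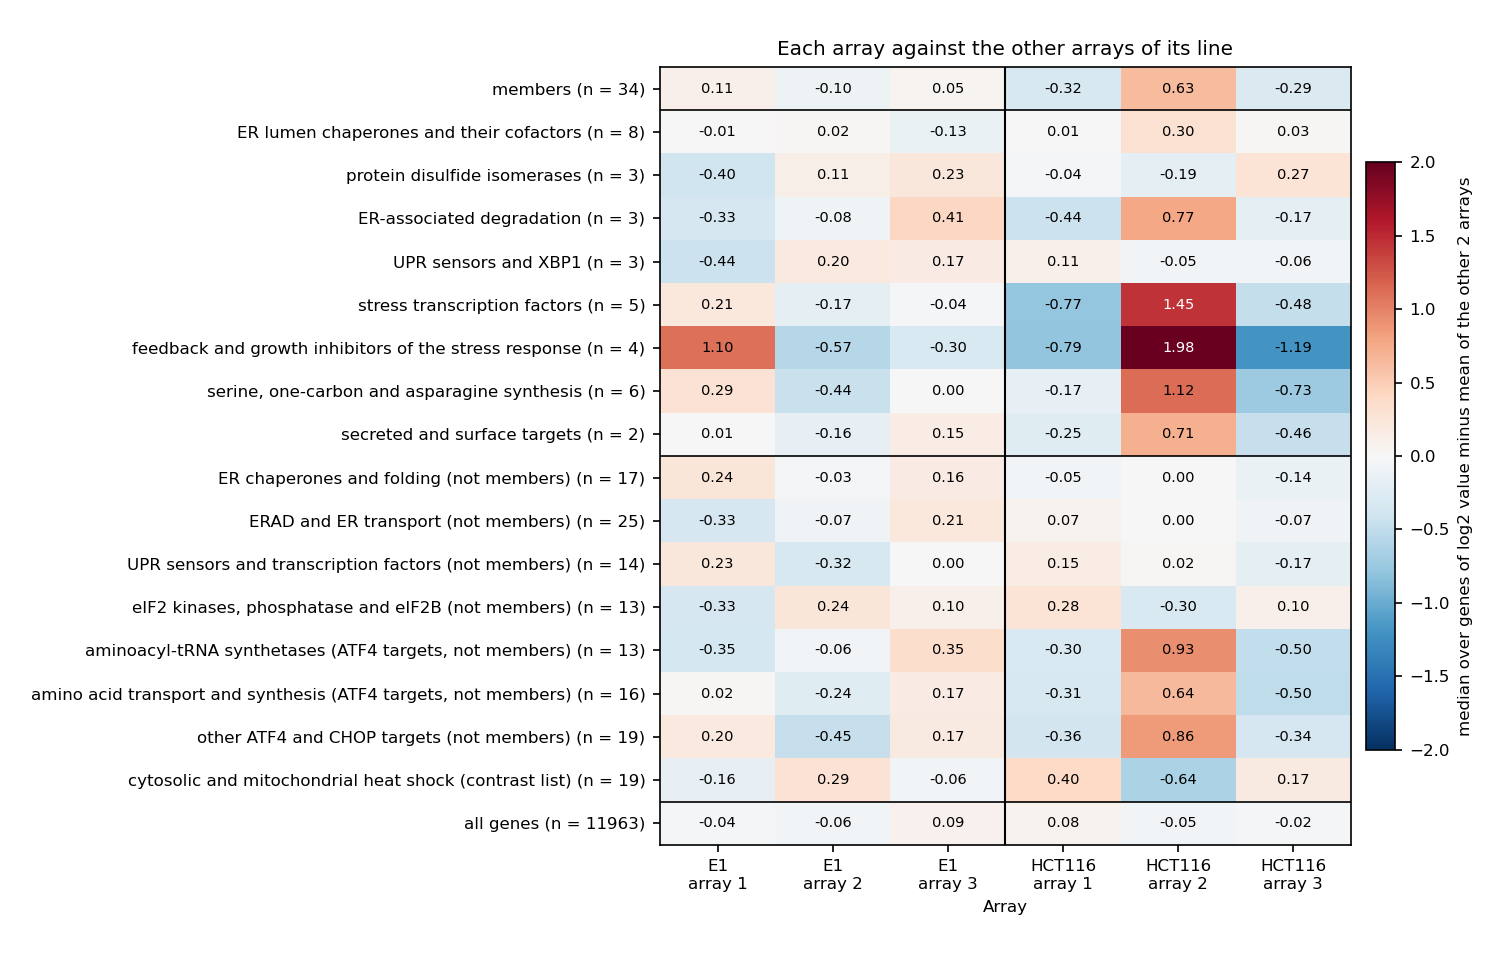
Median over the genes of a set of each array's log2(intensity + 32) minus the mean of the other 2 arrays of its line, with E1 on the left and HCT116 on the right. Rows are the 34 genes, their roles, the other pathway lists and all genes. HCT116 array 2 stands at 1.45 for the stress transcription factors, a role without XBP1, at 1.98 for the feedback genes, and at -0.05 over all genes.

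Several probe sets measured 11 of the 34 genes, and 11 of their 18 other probe sets had the sign of the one used, 7 the opposite sign. In a fit over single probe sets 0 of the 52 passed in limma (8 at an unadjusted p under 0.05), where 0.770% of all probe sets passed and 16.5% had such a p. The other probe set of HSP90B1 came closest, at -0.56 (SE 0.11, adjusted p = 0.0898), with 167, 161 and 159 in E1 and 251, 273 and 244 in HCT116. It and the probe set used have identifiers ending in _x_at, which Affymetrix gives to sets that may cross-hybridise. For CALR, the probe set used, whose identifier also ends in _x_at, stood at -0.22. Another set of CALR stood at -2.04 (SE 0.64, adjusted p = 0.216) and read 261, 82.3 and 20.8 in E1 and 675, 291 and 505 in HCT116. For SHMT2 the probe sets stood at 0.10, -0.70 and -1.39. The lowest of them, with 532, 166 and 59.4 in E1 and 519, 683 and 431 in HCT116, was at -0.01 with E1 array 1 alone. For SEL1L the 3 other probe sets stood at -0.36 to -0.55 and the one used at 0.17.

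**Figure D4:**
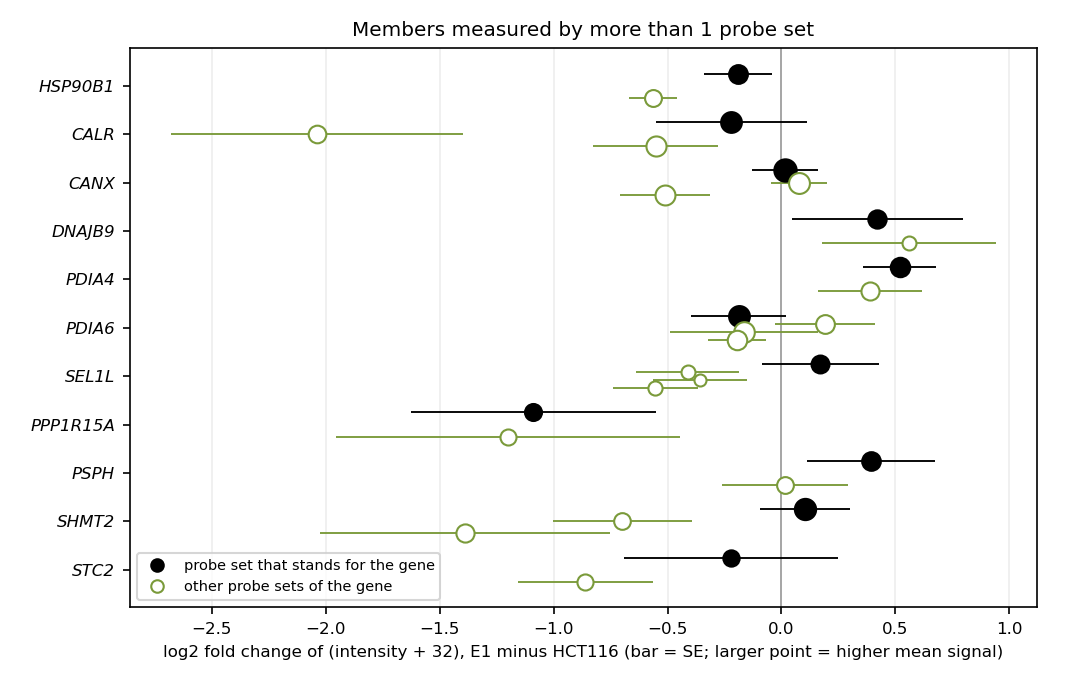
log2 fold change, E1 minus HCT116, of every probe set of the 11 genes with more than 1, with SE bars. Filled points are the probe sets that stand for the genes, open points the others, and larger points have a higher mean signal. The probe sets of CALR and SHMT2 spread over more than 1 log2 unit, from -2.04 to -0.22 and from -1.39 to 0.10.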

How the data were processed

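The authors deposited linear intensities of 22283 Affymetrix probe sets on each of 6 arrays of biotin-labelled RNA, per the labels; how intensities were summarised and scaled between arrays is not given in the sources used here. From them log2(intensity + 32) was computed, control probe sets were left out, and genes were named from the platform annotation (19065 probe sets with 1 symbol). For each of 11963 genes, the probe set of greatest average log2 value was used. E1 and HCT116, 3 arrays each, were compared with limma 3.58.1 (R 4.3.3; lmFit and eBayes, two-sided) over all genes, Benjamini-Hochberg adjusted, with a threshold of 0.05; the number of arrays limits the precision. The fit was tested on simulated data, where it recovered 40.4% of log2 changes of 1 and 82.8% of log2 changes of 2. Those are rates over 11963 genes and not for the 34, of which DDIT4 and ASNS had an SE of 0.79 and 0.86. A gene that was not called is therefore not shown to be unchanged. Every array value is given for genes past the threshold, genes with an unadjusted p under 0.05 and HSPA5, HERPUD1, XBP1, ATF4, DDIT3, TRIB3 and ASNS, and the others of the 34 are given by level or fold change, those shown array by array having been chosen after their values were seen; from each further list the called genes, or the 2 of smallest p, are named. The 34 genes and the lists were chosen with earlier results of these data known. Alternatives changed the normalization, offset, filter, probe set choice, variance model, replicate block and arrays used.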

Additional observations from a re-analysis of the deposited data

How the results depend on the processing

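Of the 34 genes 0 were called in limma under each alternative except when E1 array 1 was left out, so the count was 0 to 1 over the fits without 1 array. The count over all genes, 50, was 10 with an offset of 100, 8 when the _x_at and _s_at sets were dropped, 2 with E1 array 1 alone, and 2 to 1073 without 1 array. Its split was 26 higher and 24 lower in E1, 43 and 20 with quantile normalization, and 45 and 21 with array medians subtracted. The comparison of E1 array 1 with HCT116 arrays 1 and 3 was chosen after seeing the data; it called 0 genes, and the median of the 34 was 0.19 there. The replicate block called 2 genes and 0 of the 34. Arrays with the same number correlated at -0.06, -0.36 and -0.12 in their deviations from the line means, so the samples were not treated as paired. The median of the 34 was -0.16 to 0.17 without 1 array. When array medians were subtracted, the median difference over all genes was 0.14, against -0.01, and that over the 34 was 0.01. The following log2 fold changes, none of them called, had the opposite sign to that with all arrays; the cause was not tested. With quantile normalization this held for ERN1 at 0.019, with medians subtracted for ATF4 at 0.042, and with an offset of 100 for VLDLR at -0.0008. When probe sets were averaged within genes it held for CANX at -0.14, SEL1L at -0.29 and SHMT2 at -0.66, and with the _x_at and _s_at sets dropped for PDIA6 at 0.19 and SHMT2 at -0.70. Among single probe sets it held for CANX at -0.51, PDIA6 at 0.19, SEL1L at -0.41, -0.36 and -0.55, and SHMT2 at -0.70 and -1.39. With E1 array 1 alone it held for HSPA5 at -0.17, CALR at 0.058, CANX at -0.24, HERPUD1 at -0.084, SEL1L at -0.0495, XBP1 at -0.10, EIF2AK3 at -0.0012, ATF4 at 0.21, PHGDH at 0.41, MTHFD2 at -0.20 and VLDLR at -0.055. In the comparison with HCT116 arrays 1 and 3 it held for HYOU1 at 0.082, CANX at -0.25, EIF2AK3 at -0.017, ATF4 at 0.69, DDIT4 at 0.61, TRIB3 at 0.55, ASNS at 0.68, PSAT1 at 0.27, PHGDH at 0.94, STC2 at 0.40, PPP1R15A at 0.21 and VLDLR at -0.14. Over the fits without 1 array, the genes that changed sign ranged as follows: HSPA5 from -0.19 to 0.23, CALR from -0.51 to 0.048, CANX from -0.067 to 0.15, PDIA3 from -0.18 to 0.12, HERPUD1 from -0.16 to 0.72, ATF4 from -0.47 to 0.38, DDIT3 from -0.018 to 0.49, ASNS from -1.20 to 0.47, SHMT2 from -0.027 to 0.25, MTHFD2 from -0.15 to 0.22, CEBPG from -0.42 to 0.24, STC2 from -0.53 to 0.33 and VLDLR from -0.0801 to 0.082. Signals near the offset limit the difference that NUPR1, DNAJC3 and VLDLR can show.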
